A study of Homo sapiens with 2 samples.

Results

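The EGF receptor family and its ligands were followed in the HCT116 line, which was established from a human colorectal carcinoma, with and without stable overexpression of HOXA5 short RNA. The set held 10 genes of the 21613 with a probe on the array: the receptors EGFR, ERBB2 and ERBB3 and the ligands EGF, TGFA, HBEGF, AREG, EREG, BTC and EPGN. Its members were chosen by name, and every non-control probe whose RefSeq accession belonged to a listed gene was taken, which gave 16 probes. One group was HCT116 cells labelled as the control genotype (mock transfected, pEB-mock), and the other was HCT116 cells with the genotype overexpression of HOXA5 short RNA. Both carried the episomal pEB vector with blasticidin resistance and grew in blasticidin for 2 weeks, and both therefore share the vector, the drug and the cell line. Each group was measured once, from 400 ng of total RNA labelled with Cy3 on a 1-colour Agilent whole human genome array, so every difference is a value for 1 pair of arrays and none was tested. The study examined EGF signaling in these cells, and the comparison here asks whether the transcripts of the receptors and ligands themselves differed.

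Members of the EGF receptor family are receptor tyrosine kinases that span the cell membrane. A ligand is made as a membrane-anchored precursor, is cut free by a metalloprotease, and joins receptors into dimers that phosphorylate each other and signal through RAS and the MAP kinases and through PI3 kinase. EGF, TGFA, AREG and EPGN bind EGFR, and HBEGF, BTC and EREG bind ERBB4 as well. ERBB2 has no known ligand of its own and acts as a dimer partner, and ERBB3 has little kinase activity and mainly recruits PI3 kinase. In the colon, AREG and EREG are known as ligands that colorectal tumors often express.

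The signal of a spot was the processed signal of the scanner software, a background-corrected intensity. A difference is the log2 signal less the 75th percentile of its array (35.6 for mock-transfected and 44.0 for HOXA5 short RNA-overexpressing cells), HOXA5 short minus mock, so equal raw signals give a negative difference. A probe was compared when the software called it well above background on both arrays, which held for 17940 of 50595 probes and, after averaging probes of 1 gene, for 11996 genes. Across those genes the median difference was -0.02 and the SD 0.29. The error of a single spot was judged from probes printed in 10 copies. The SD of their single-spot differences was 0.15 where the dimmer array read above 200, 0.18 from 50 to 200, 0.27 from 15 to 50 and 0.53 from 5 to 15. It covers measurement on the array and holds no spread between cultures. The HOXA5 probe read 39.4 ± 4.32 in mock-transfected cells and 346 ± 34.6 in HOXA5 short RNA-overexpressing cells (± the scanner's own error, also for the values that follow). After scaling this was 2.83, or 7.11-fold higher, the direction the labels give, although where the probe sits in the transcript is not stated in the files. Of the markers of epithelial and colonic cells, 7 of 10 were compared and lay between -0.10 and 0.28, whereas KRT20, VIL1 and CEACAM5 were not well above background. Of 13 markers of fibroblasts, endothelial cells and leukocytes, 12 had a probe and 1, COL1A1, was well above background on both arrays (signals of 16.7 and 22.6). Of the probes for the spike-in RNAs added to each labelling, 7 were well above background on both arrays. All 7 were lower on the HOXA5 short array, with a median of -0.47 and a range of -0.66 to -0.04. The part of this shift in the member differences was not tested beyond rescaling on these probes (below). With whole-cell RNA, fewer cells that express a gene and less RNA per cell cannot be told apart.

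The EGF receptor and ligand transcripts went both ways. Both arrays detected 11 of the 16 probes, that is, read them well above background. A further 1 was detected only in HOXA5 short RNA-overexpressing cells, 0 only in mock-transfected cells and 4 on neither array. Of the 11, 6 were higher and 5 lower in HOXA5 short RNA-overexpressing cells. Exactly 1 probe, for AREG, was at least 2-fold higher, beside 1.06% of all compared probes, and 0 were at least 2-fold lower, beside 0.318% of all compared probes. By gene, 8 of the 10 members were compared, 4 higher and 4 lower, with a median of -0.04 beside -0.02 over all genes. No member gene reached 2-fold in either direction (0 higher beside 0.642% of all genes, 0 lower beside 0.258%). At 1.5-fold, AREG and BTC were higher, which is 2 genes beside 2.78% of all genes, and TGFA was lower, which is 1 gene beside 1.60%. EGF and EPGN had no probe well above background on either array.

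**Figure D1:**
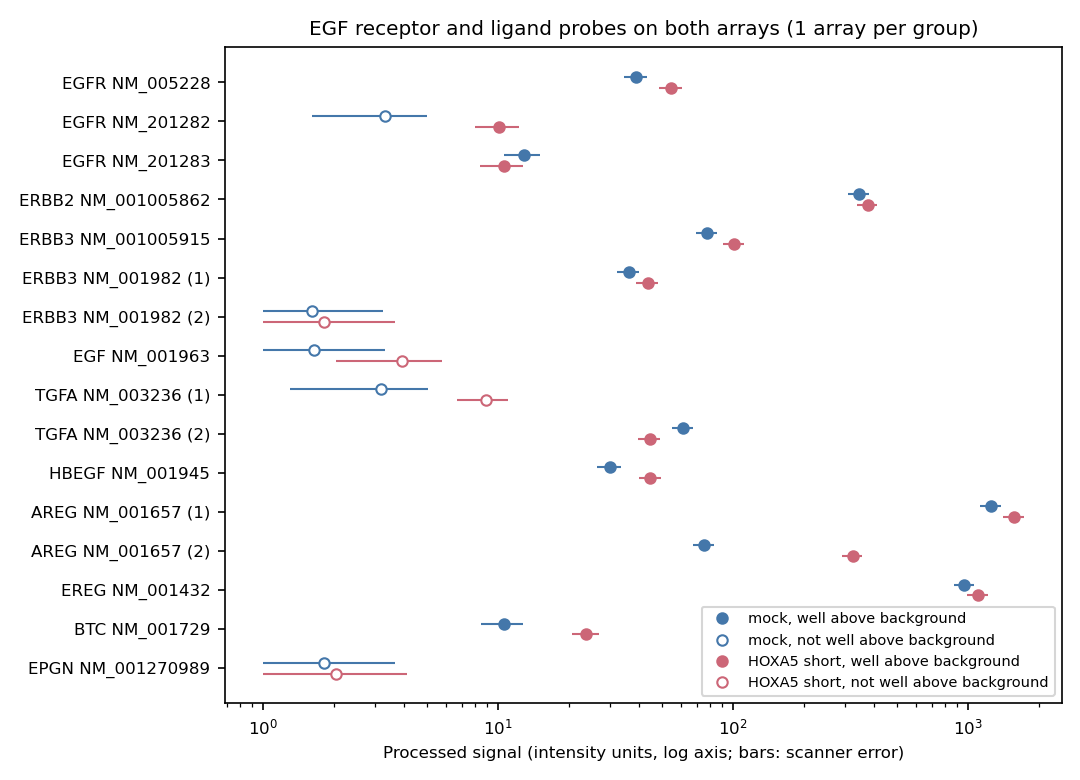
Processed signal of the 16 probes (log axis, intensity units) on the mock array (blue) and the HOXA5 short array (red), with bars for the scanner error, drawn no lower than 1. Filled points were well above background and open points were not, and 5 probes have an open point. Signals are shown before scaling, so an equal level after scaling appears slightly brighter on the HOXA5 short array, and numbers in brackets tell probes of 1 accession apart.

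All 3 receptor genes were compared, and their differences ran from -0.20 to 0.03 with a median of -0.19. EGFR, which binds all of the listed ligands, had 3 probes. Its probe for NM_005228, the transcript of the full-length receptor, read 38.8 ± 4.43 in mock-transfected cells and 54.6 ± 5.97 in HOXA5 short RNA-overexpressing cells. After scaling this was a difference of 0.19, within the 0.27 spread of single spots at its brightness and below its scanner error of 0.23. The probes for NM_201282 and NM_201283 carry the accessions of transcripts that code for shortened, secreted forms of the receptor. The probe for NM_201283 read 12.8 ± 2.22 and 10.6 ± 2.21, a difference of -0.58 beside a spread of 0.53 and a scanner error of 0.39. That for NM_201282 read 3.30 ± 1.69 in mock-transfected cells, where it did not pass as well above background, and 10.1 ± 2.13 in HOXA5 short RNA-overexpressing cells, where it did. Set against the lowest passing signal of the mock array, 7.74, it was 1.06-fold higher, a margin smaller than the scanner error of its own signal. The normexp background model, which starts from the median foreground and local background, put it at -0.07. The model's offset of 50 draws differences of such dim spots towards 0, but its part in this value was not tested. The probe was 1 of 1013 detected on the HOXA5 short array only, whose median bound was 1.19 and of which 134 had a bound under 1. The 3 EGFR probes thus did not run one way, and the gap of 0.77 between the compared ones was reached by 8.35% of the 2647 genes with several compared probes. The mean for EGFR, -0.20, rested on the dim NM_201283 probe: with signals above 15 required on both arrays it was 0.19.

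ERBB2, the dimer partner of the other receptors, was the best measured member, since its probe was printed in 10 spots. The spots read 331 to 362 in mock-transfected cells, with a mean of 345, and 351 to 398 in HOXA5 short RNA-overexpressing cells, with a mean of 374. The raw signals overlapped, and after scaling each of the 10 copies was lower, with a mean of -0.19 (SD 0.08 over copies, which are not replicate cultures) and a range of -0.27 to -0.04. The mean was 0.91 times the scanner error of 0.20 and 1.23 times the 0.15 spread of single spots at its brightness. Both measures are for a single spot and not for a mean of 10. The mean difference is 1.14-fold lower. It was -0.09 when the arrays were scaled to their medians and 0.28 when scaled to the spike-in RNAs, so its direction followed the scaling.

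ERBB3, the kinase-impaired receptor, had 3 probes of which 2 were compared. The probe for NM_001005915, a short transcript for a secreted form, read 77.3 ± 7.89 and 101 ± 10.3, a difference of 0.09. The probe A_23_P349416 for NM_001982, the full-length transcript, read 36.0 ± 4.01 and 43.4 ± 4.75, a difference of -0.03. Both were within the spread of single spots, 0.18 and 0.27. The other probe for NM_001982 gave 1.62 and 1.82 and was not well above background on either array.

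The ligands spread more widely than the receptors. Of 7 ligand genes 5 were compared, 3 of them higher, with a median of 0.27 and a range from -0.78 for TGFA to 0.91 for AREG. Whether ligands and receptors differ in spread was not tested. AREG codes for amphiregulin, and its probes, both assigned to NM_001657, gave different answers. The probe A_23_P259071 read 1254 ± 125 in mock-transfected cells and 1574 ± 157 in HOXA5 short RNA-overexpressing cells, a difference of 0.02. The probe A_33_P3419190 read 75.3 ± 7.68 and 323 ± 32.4, a difference of 1.80 or 3.48-fold. That is 8.72 times its scanner error of 0.21 and 9.82 times the spread of single spots at its brightness, so on this pair of arrays it exceeded the measurement error that could be estimated, and the other AREG probe did not. The gap between the probes was 1.77, against a median gap of 0.24 over the 2647 genes with several compared probes, and 0.831% of those genes had a gap as large. The gene value of 0.91 is the mean of the pair. The deposited files assign both probes to the same accession and give no probe sequence, and the RefSeq gene record lists AREGB as a synonym of AREG. Which transcripts each probe reads was not tested.

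**Figure D2:**
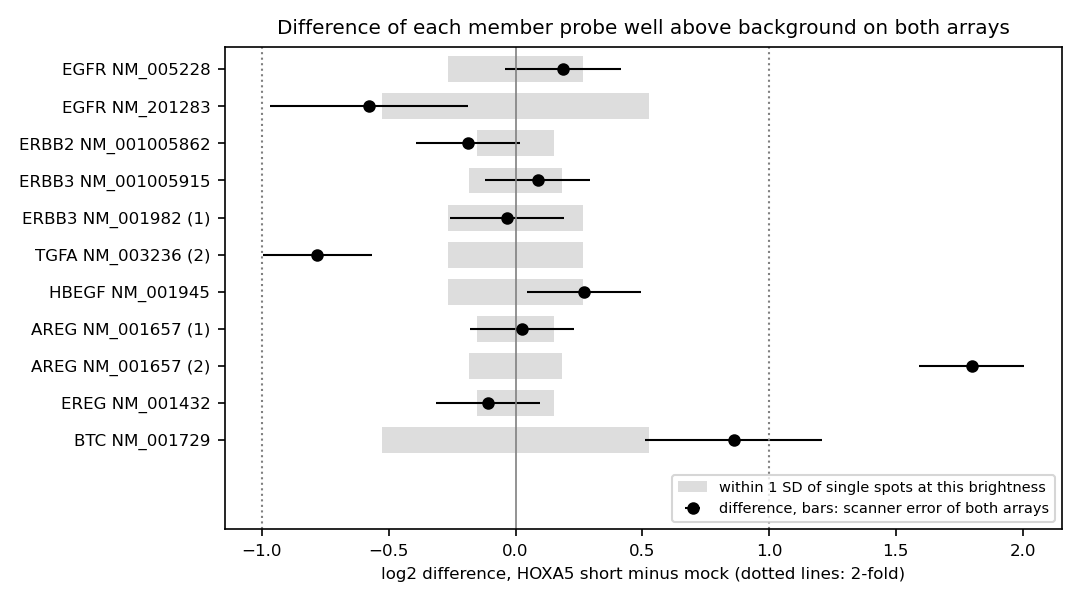
log2 difference, HOXA5 short minus mock, of the 11 compared probes, with bars for the scanner error of both arrays and grey bands for 1 SD of single-spot differences of copied probes at that brightness. ERBB2 is the mean of 10 spots and each other point is 1 spot; the second AREG probe lies past the dotted 2-fold line at 1.80 and the first at 0.02.

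AREG lies on chromosome 4 beside other members. In the RefSeq gene order EPGN, EREG and AREG follow each other directly, and BTC is the next protein-coding gene, with 2 long non-coding RNA genes between. The 110 bases that precede the start of each gene are shown because these neighbouring ligands had unlike values: AREG with unlike probes, BTC higher, EREG close to 0 and EPGN undetected. The sequences are from RefSeq, build GRCh38.p14, 5′ to 3′ on the strand of the gene, and capitals mark matches on either strand to TATAAA, the core of a TATA box, to the GC box GGGCGG, to TGACGTCA, the cyclic AMP response element, or to the AP-1 site TGACTCA.
EPGN, chr4:74308360-74308469, plus strand: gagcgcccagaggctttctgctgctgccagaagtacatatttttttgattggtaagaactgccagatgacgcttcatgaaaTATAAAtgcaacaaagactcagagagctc
EREG, chr4:74365035-74365144, plus strand: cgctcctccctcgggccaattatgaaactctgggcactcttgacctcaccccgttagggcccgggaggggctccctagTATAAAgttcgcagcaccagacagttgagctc
AREG, chr4:74445026-74445135, plus strand: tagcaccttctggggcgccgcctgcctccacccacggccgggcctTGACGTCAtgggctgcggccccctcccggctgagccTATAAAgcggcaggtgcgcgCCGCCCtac
BTC, chr4:74794524-74794633, minus strand: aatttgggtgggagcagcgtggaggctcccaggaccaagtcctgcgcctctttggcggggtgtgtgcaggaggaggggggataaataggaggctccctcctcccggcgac
Of these letters, AREG held TATAAA at 29 bases before the start, GGGCGG on the opposite strand at 9 bases and TGACGTCA at 65 bases. EREG held TATAAA at 32 bases and EPGN at 29 bases, and BTC held none of the motifs. In the longer windows of 250 bases before the start, EPGN, EREG, AREG and BTC held the same matches and no others. In windows of that length, TATAAA stood in 10.7% of all 35116 promoter windows, GGGCGG in 42.6%, TGACGTCA in 1.65% and TGACTCA in 4.20%. The array design was annotated on hg19, and no expression value is tied to these coordinates. The matches are descriptions of letters.

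EREG, or epiregulin, read 965 ± 96.5 in mock-transfected cells and 1105 ± 111 in HOXA5 short RNA-overexpressing cells. After scaling the difference was -0.11, within the spread of 0.15, so no difference was detectable at this precision. BTC, or betacellulin, read 10.6 ± 2.14 and 23.8 ± 3.14, a difference of 0.86 or 1.82-fold. This was 1.64 times the spread of 0.53 for spots as dim as its mock signal. The normexp background model gave 0.14. Its offset of 50 exceeds both signals and draws such a difference towards 0, but the part of the offset in this value was not tested. EPGN, or epigen, gave 1.82 and 2.05 and was not well above background on either array.

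TGFA, which codes for transforming growth factor alpha, was the compared member with the lowest value. Its probe A_33_P3408203 read 61.6 ± 6.35 in mock-transfected cells and 44.2 ± 4.73 in HOXA5 short RNA-overexpressing cells. It was dimmer in the latter even before scaling, as among the compared probes only that for EGFR NM_201283 was too. The difference of -0.78, or 1.72-fold lower, was 3.65 times its scanner error and 2.94 times the spread of single spots. It remained below 0 under every scaling and background correction tried, from -0.80 to -0.31. The other TGFA probe, A_23_P377291, gave 3.18 ± 1.87 and 8.86 ± 2.19 and was not well above background on either array, so no fold is given for it. When that probe was averaged in, the gene value turned to 0.20, so the direction for TGFA rests on 1 probe.

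HBEGF, the heparin-binding ligand, read 29.9 ± 3.38 and 44.5 ± 4.77. Its difference of 0.27 was 1.02 times the spread of single spots at its brightness. EGF itself gave 1.65 ± 1.66 and 3.90 ± 1.86 and was not well above background on either array. Of the ligands, the AREG, EREG, HBEGF, TGFA and BTC transcripts were thus detected in these cells, and EGF and EPGN were not detectable with the probes on this array.

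**Figure D3:**
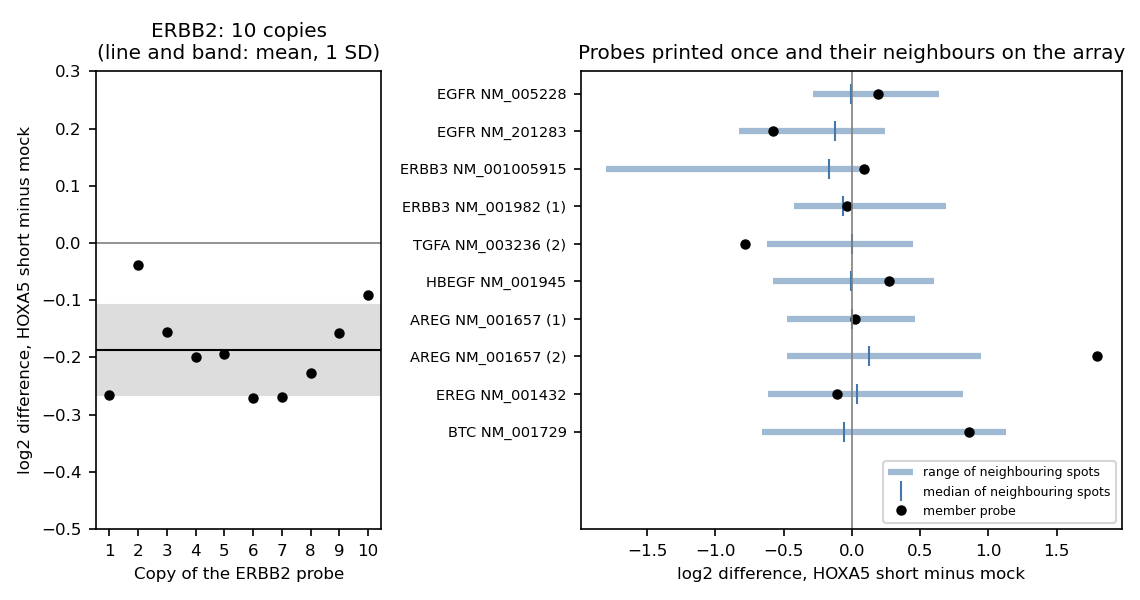
Left, log2 difference of each of the 10 copies of the ERBB2 probe (points; line and band, mean and 1 SD), all below 0. Right, log2 difference of each compared member probe printed once (black) beside the range and median of well-measured spots within 4 rows and 4 columns of it on the array (blue); of these, the second AREG probe and the compared TGFA probe lie outside the range of their neighbours.

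Position on the array was examined, because patches of the slide held unusually many large differences. Inside such patches 32.4% of 108 probes printed once differed 2-fold, and outside them 1.23% of 17238. A patch was a place where at least 20% of at least 10 well-measured neighbours differed 2-fold. Of the 15 member probes printed once, 0 lay in a patch. Of the 24 neighbours of the AREG probe A_33_P3419190, 0 differed 2-fold, and so did 0 of 29 around the TGFA probe and 1 of 32 around the BTC probe. Of the probes not compared, EGFR NM_201282 and TGFA A_23_P377291, each not well above background on at least 1 array, also lay above all their neighbours. Subtracting the local median left the AREG probe at 1.67 and TGFA at -0.78.

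**Figure D4:**
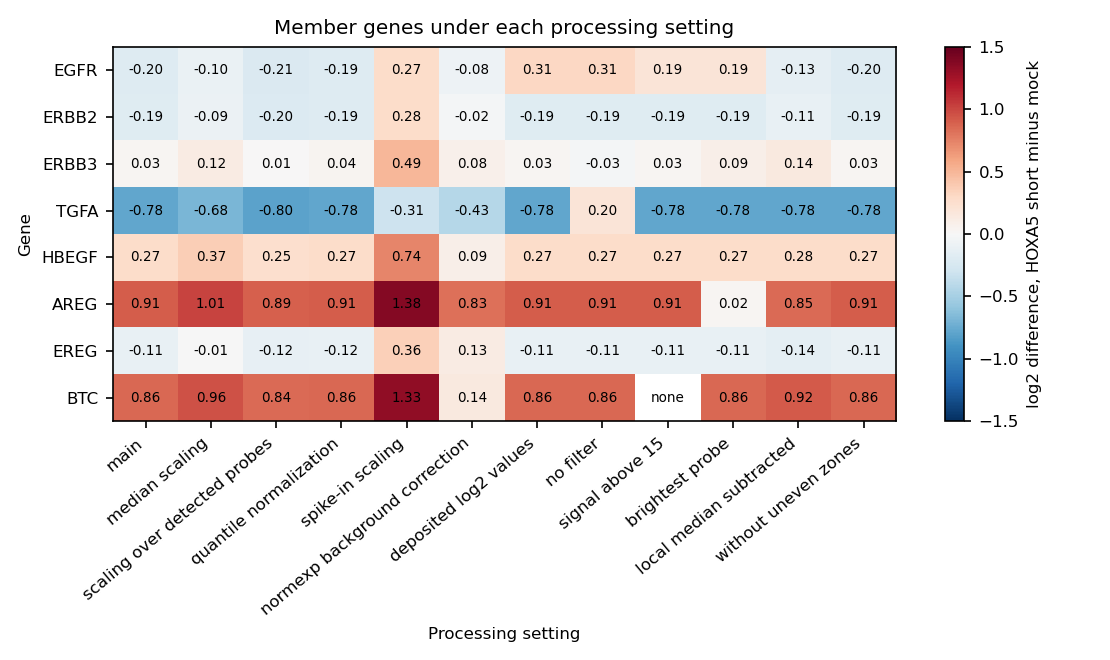
log2 difference, HOXA5 short minus mock, of the 8 compared member genes (rows) under the main processing and 11 alternatives (columns), with the value printed in each cell and red for higher. HBEGF, AREG and BTC are above 0 under each setting that gives a value, TGFA is below 0 except with no filter (0.20), and EGFR takes both signs.

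The gene values were recomputed under 11 other settings. HBEGF lay between 0.09 and 0.74, AREG between 0.02 and 1.38 and BTC between 0.14 and 1.33, all above 0. Their lowest values were within the spread of single spots, 0.27 for HBEGF, 0.15 for the brighter AREG probe and 0.53 for BTC. Several settings could not move these genes. Leaving out patches changed no member gene, and filters or the brightest probe cannot change the value of a gene with 1 probe. The deposited values hold nearly the same probe differences. EGFR changed sign in 5 of 11 settings, ERBB2 in 1, ERBB3 in 1 and EREG in 2. Spike-in scaling raises every probe by 0.47, and under it the receptors became 0.27 for EGFR, 0.28 for ERBB2 and 0.49 for ERBB3. In the deposited log2 values EGFR was 0.31, since that table also holds the probe detected on the HOXA5 short array only.

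Other genes of the pathway were taken from 4 lists written by role, with 63 genes in all. Of these 52 were compared, 30 higher and 22 lower with a median of 0.05, and 0 reached 2-fold (beside 0.642% higher and 0.258% lower of all genes) or 1.5-fold (beside 2.78% and 1.60%). At those shares few or no calls among 52 genes are usual, so the 0 says little about these lists. Of the 52, 35 lay within 0.21 of 0, the SD of single-spot differences over all detected copied probes. That SD is not matched to the brightness of each gene, and the share over all genes was not computed. The count is therefore no result about these lists. The remaining receptor ERBB4 and the neuregulins NRG1, NRG2, NRG3 and NRG4, ligands of ERBB3 and ERBB4, had 0 of 5 genes compared. For NRG1 1 of its probes was well above background on the HOXA5 short array only (6.96 and 13.5), 1 of 1013 such probes. The other NRG1 probe was well above background on neither array (7.52 and 7.08).

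Of the genes for release of ligands from the membrane, 9 of 12 were compared, 4 higher and 5 lower, with a median of -0.02. ADAM17, the main sheddase of AREG, TGFA and HBEGF, read 187 and 217, a difference of -0.09. ADAM10, the sheddase for EGF and BTC, had a difference of 0.03. RHBDF2, which carries ADAM17 through the secretory pathway, was the lowest at -0.20, with signals of 450.3 and 485. CNIH4, a cargo receptor of the cornichon family, was the highest at 0.52, and its probes again differed from each other, with 1583 and 1957 (0.00) for NM_014184 and 39.4 and 100.2 (1.04) for NM_001277200.

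Of the adaptors and kinases that carry the signal, 23 of 26 were compared, 14 higher and 9 lower, with a median of 0.07. PIK3CB was not compared, because its 1 probe was well above background on the mock array only. PIK3R1, a regulatory subunit of PI3 kinase, was the highest at 0.36, with signals of 25.6 and 40.5. MAP2K2, a kinase that activates ERK, was the lowest at -0.53, with signals of 533 and 455. MAP2K1, which also activates ERK and is mentioned after its values were seen, differed by 0.07, with signals of 275 and 357. PTPN11, the phosphatase SHP2, had 3 probes from -0.26 to 1.03 and was chosen for mention after its values were seen. Of the 66 compared probes of these lists, 2 were at least 2-fold higher, 1 of CNIH4 and 1 of PTPN11, beside 1.06% of all compared probes, and 0 were 2-fold lower, beside 0.318%.

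Of the genes that attenuate the receptors, all 20 were compared, 12 higher and 8 lower, with a median of 0.04. CBL, the ubiquitin ligase that marks activated EGFR for degradation, was the highest at 0.55, with signals of 39.4 and 71.1. SOCS4, an adaptor of a ubiquitin ligase that acts on EGFR, was the lowest at -0.42, with signals of 182 and 167. ERRFI1, a feedback inhibitor of the receptor kinases that is itself induced by their signaling, read 2059 and 2720 and differed by 0.10. LRIG1, a transmembrane inhibitor of the receptors, differed by 0.07.

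**Figure D5:**
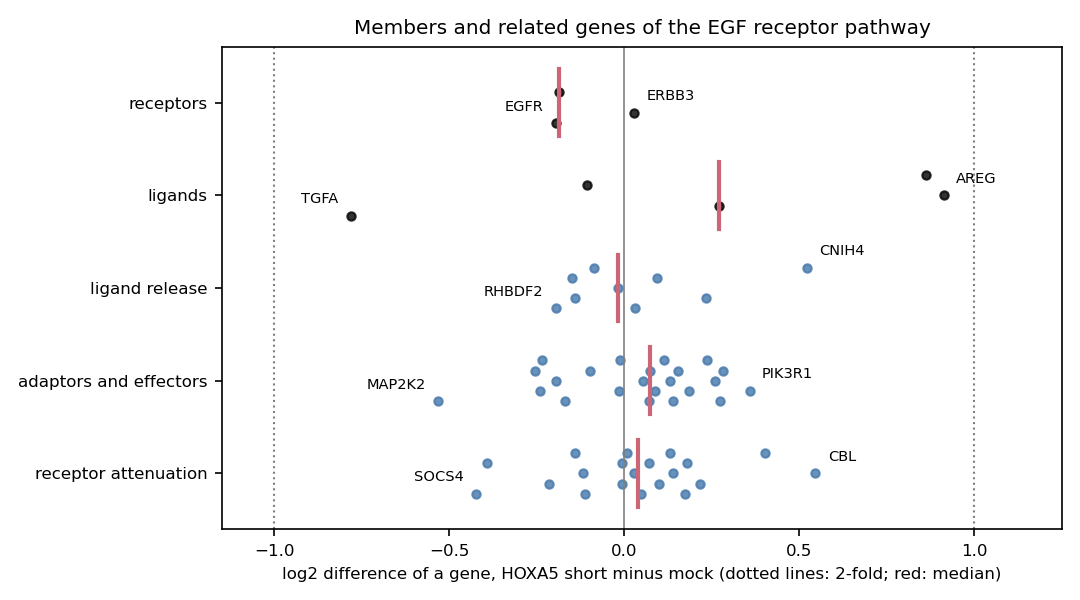
log2 difference, HOXA5 short minus mock, of each compared gene (points) among the receptors and ligands (black) and the lists of related genes (blue), with the median of each in red and the genes at the ends named. No gene reaches the dotted 2-fold lines, and the ends are TGFA at -0.78 and AREG at 0.91.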

How the data were processed

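Feature Extraction 11.5.1.1 read the spots, per the file headers, and the deposited scanner output gives background-corrected signal intensity per spot with its error and flags. The authors also deposited log2 values for 19461 probes (24 of them controls). Each probe there is centred on its own mean, so the columns mirror each other (medians 0.01 and -0.01) and only their difference carries information; it lay within 0.01 of the scanner difference for 100% of compared probes, which fixes its direction and log base, and its scaling is not given in the sources used here. Groups came from the genotype labels; the treatment text names the HOXA5 short vector for both samples. Both arrays shared 1 slide and 1 scan.

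Flagged outlier spots and controls were left out, log2 signals of a probe's spots were averaged, and each array's 75th percentile was subtracted (Python 3.11.15, pandas 2.3.3; limma 3.58.1 in R 4.3.3 for normexp with an offset of 50 on the median foreground and local background, and for quantile normalization). Accessions were matched without versions to RefSeq GRCh38.p14 gene records, which named 59.3% of probes. The files hold no probe sequence or position. The calculation was run on simulated data with large changes and the same noise at every brightness. That checks the code and does not show what could be detected at dim signals. Single-spot spread was read at the brightness of the dimmer array, a choice made after seeing the data. All members were named, each probe, and of the related lists the genes at both ends. The members and lists were chosen with earlier results of these data known; ADAM17, ADAM10, ERRFI1 and LRIG1 are named for their roles. Genes with a like pattern were not sought, since 2 arrays give 1 difference per gene. The alternatives were other scalings, background correction, filters, the brightest probe, grid position and a 1.5-fold threshold.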

Additional observations from a re-analysis of the deposited data

How the results depend on the processing

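No paired analysis was possible because each group has 1 array and the labels give no replicate number. The median over the member genes, -0.04, was 0.43 with spike-in scaling and 0.23 with no filter, and between -0.11 and 0.03 with 1 member gene left out. The count of genes at least 2-fold higher, 0, became 1 with median scaling (AREG, 1.01; 0.900% of all genes under that scaling, 0.642% before), 2 with spike-in scaling (AREG and BTC; 3.33% of all genes) and 2 at the 1.5-fold threshold, and the count at least 2-fold lower became 1 at that threshold. The sign of the median thus changed with the setting. Of 77 recomputed probe values, 63 moved by less than the spread of single spots and 14 by more, 9 with spike-in scaling and 5 with normexp. The AREG probe A_33_P3419190 ranged from 1.51 to 2.27. Scaling to the median shifts every probe by 0.10 and spike-ins by 0.47, so these counts rise with the common shift. Normexp moves the median probe by 0.09 but single probes by more, as BTC to 0.14. Its offset of 50 shrinks the difference of so dim a probe, and the part of the offset in that move was not tested. Signals near background (BTC, EGFR NM_201283) are the least precise, and 1 array per group leaves the spread between cultures unmeasured.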
